A study of Mus musculus with 8 samples.

Results

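The genes described are 10 components of T cell receptor signalling, taken by symbol from the table of 22609 genes: Sla, Sla2, Lat, Lcp2, Grap2, Vav1, Plcg1, Sh2d2a, Themis and Fyb. All 10 were found, and all 10 passed the filter on low values. Transcript levels come from RNA sequencing of naive CD8 T cells, the precursors of cytotoxic T cells that have not yet met antigen, from the spleens of C57BL/6 mice aged 3 months. The study set 4 libraries from Brca1 heterozygous mice, called Het, against 4 libraries from Brca1 wild type mice, called WT. The libraries are named by genotype and title number: Het 31, 53, 56 and 139, and WT 45, 54, 57 and 65. The sources used here do not say how the Brca1 allele was made. Nor do the labels state that every library stands for its own mouse, and the p-values therefore reflect library-to-library spread, which may be technical.

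When the T cell receptor binds its ligand, the kinases Lck and Zap70 phosphorylate the membrane scaffold LAT, the product of Lat. The bridging adaptor GADS, from Grap2, ties LAT to SLP-76, from Lcp2, and on this platform the enzymes encoded by Plcg1 and Vav1 start the calcium, Ras and cytoskeleton branches. The adaptors SLAP and SLAP2, from Sla and Sla2, work with the ubiquitin ligase Cbl to remove receptor chains and so lower signalling. THEMIS, TSAd from Sh2d2a, and ADAP from Fyb tune the platform or link it to integrins. Vav1 and Plcg1 encode enzymes that the adaptors recruit, so the set is one of adaptors and their main clients.

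The 8 libraries carried the marks of CD8 T cells, with Cd8a at 45657.9 to 50265.2 in Het and 40591 to 46876.7 in WT libraries, in normalized read counts. These are the authors' values, and since all libraries follow 1 shared distribution, they say nothing about total RNA. Depth can be seen only at the low end: 13863 to 14656 genes were above 0 in Het and 15358 to 15569 in WT libraries. The lowest value above 0 was 0.9 to 1.9 in Het and 0.2 to 0.3 in WT libraries, against a lowest value of 3025.2 for any of the 10 genes. B cell markers differed widely: 10 genes such as Cd79a and Cd79b summed to 3902.2 to 19407 in Het and 3169.5 to 8258.6 in WT libraries, with Het 31 standing far above the other 7. All 10 averaged higher in Het, and none passed the test used below. Of 13 nerve, glia and connective tissue genes 7 passed that test, all lower in Het, and their sum was 9913.8 to 10972.5 in Het and 15053 to 18911.8 in WT libraries. NK cell markers were higher in Het in 8 of 9 tested genes (median 0.85) and heat shock genes lower in 8 of 9 (median -0.56), and none of either passed. Epidermal genes summed to 5296.2 in WT 45 and 4153.2 in WT 54, against 76.6 to 749 in the other 6 libraries, and those 2 libraries are left out together in 1 alternative.

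Het against WT was tested with limma on log2(value + 1), fitted over 12048 genes with a mean of at least 10, with Benjamini-Hochberg adjustment and a threshold of 0.05. Differences are given on this log2 scale as Het minus WT. In bulk samples such as these, fewer cells of a type and less RNA per cell cannot be told apart. None of the 10 genes passed by limma (adjusted p = 0.372 to 0.965), and 1 of them, Sla, had an unadjusted p under 0.05. Over all tested genes 0.515% passed the adjusted threshold, all of them lower in Het, and 8.19% had an unadjusted p under 0.05. Of the 10 genes 4 were higher and 6 lower in Het, with a median log2 difference of -0.08, beside a median of 0.01 over all tested genes. The median size of the difference without its sign was 0.10 for the 10 genes and 0.09 for the 5515 genes with a mean of at least 1000.

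**Figure D1:**
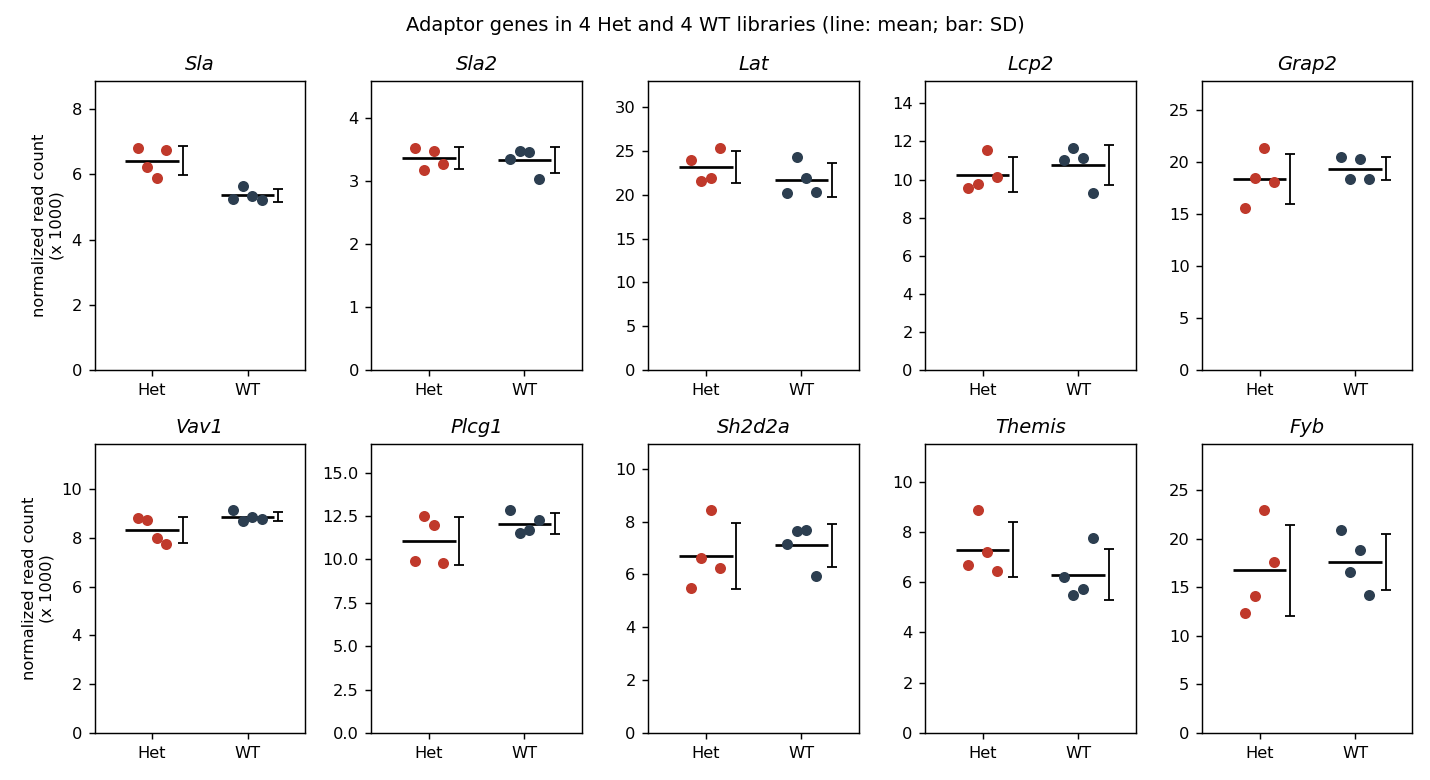
Normalized read count of each of the 10 genes (vertical axes, x 1000, from 0) in the 4 Het libraries (red, left) and the 4 WT libraries (dark, right), with the mean as a line and the SD as a bar. The genotypes are apart in Sla, where Het libraries lie at 5877.3 to 6811.2 and WT libraries at 5223.3 to 5652, and overlap in the other 9 genes.

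Sla, whose product lowers the amount of T cell receptor on developing T cells, showed the largest difference of the 10. Its normalized read count was 6811.2, 6210, 5877.3 and 6732.2 in Het 31, 53, 56 and 139, and 5241.9, 5652, 5338.4 and 5223.3 in WT 45, 54, 57 and 65. Each Het library was above each WT library, with Het 56 the lowest of its genotype and WT 54 the highest of its own. Sla averaged 6408 ± 443 in Het and 5364 ± 199 in WT (SD, n = 4 each). An exact permutation test gave p = 0.0286, which is the smallest it can give for 4 against 4 libraries. The log2 difference was 0.25 (SE 0.08, 95% interval 0.08 to 0.43), which is 1.20-fold of the mean, and it did not pass the adjusted threshold (limma adjusted p = 0.372). Genotypes did not overlap in 5.0% of all tested genes, 2.13% with Het higher and 2.86% with Het lower, and in 1 of these 10 genes. The count was 2 with median ratio scaling, which added Vav1 (lower in Het), and 2 without WT 65, which added Themis (higher in Het). The share over all tested genes is not given for these 2 settings, and lack of overlap is easier to reach with fewer libraries. These counts therefore cannot be set against the 5.0%. By its place in each library, Sla was the 843rd to 1038th highest of the 22609 genes in Het and the 1095th to 1216th in WT. As the libraries share 1 distribution, these places restate the values and add no further evidence. Relative to 6 CD3 and CD8 chain genes (Cd3e, Cd3d, Cd3g, Cd247, Cd8a and Cd8b1) its log2 difference was 0.13 (limma adjusted p = 0.618), a scaling that moved the median of all genes to -0.12. Sla overlaps Tg on the opposite strand, with no shared exon, in the GENCODE M21 annotation, and Tg was at 22.4 or less in every library. Sla ran against the nerve, glia and connective tissue list over the 8 libraries (r = -0.90, exact permutation p = 0.00618, rho = -0.76, exact permutation p = 0.0368, n = 8), which missed the threshold after adjustment over the 70 relations described below (0.054). That r was -0.87 without Het 31 and 53, the libraries farthest from the list's median, and -0.47 within genotypes (exact permutation p = 0.472, n = 8). Taken by genotype, r was -0.785 over the Het libraries and 0.994 over the WT libraries, so the sign was not shared.

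Sla2, the relative of Sla with a similar action through Cbl, overlapped between the genotypes. It stood at 3522.7, 3163.4, 3478.6 and 3265.8 in Het 31, 53, 56 and 139, and at 3340.4, 3471.6, 3455.1 and 3025.2 in WT 45, 54, 57 and 65. These values interleave, and the log2 difference was 0.02 (SE 0.08, 95% interval -0.17 to 0.20, limma adjusted p = 0.965). The interval leaves out a change beyond 1.15-fold up or 0.891-fold down in Het. The ratio of Sla to Sla2 within a library, chosen after the values had been seen and so given as a description, was 1.93, 1.96, 1.69 and 2.06 in Het 31, 53, 56 and 139, and 1.57, 1.63, 1.55 and 1.73 in WT 45, 54, 57 and 65. Het 56 was below WT 65 in this ratio, so the genotypes overlapped.

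The 3 genes whose profile over the 8 libraries was most like that of Sla were Ggnbp2, Rgs12 and C80913, out of 9537 compared genes with a mean of at least 100. Likeness was the mean absolute gap between the log2 profiles after each gene's own mean was subtracted, and it was 0.0434 for Ggnbp2, 0.0460 for Rgs12 and 0.0465 for C80913. Ggnbp2 was at 5585 ± 422 in Het and 4902 ± 176 in WT libraries, and C80913 at 2052 ± 183 in Het and 1795 ± 28.8 in WT libraries (SD, n = 4 each). Rgs12, which encodes a regulator of G protein signalling, was much lower, at 169 ± 18.1 in Het and 141 ± 4.05 in WT. None of the 3 passed the limma test. Among the other 9 genes Lat was nearest to Sla, at a gap of 0.0791.

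The scaffold genes Lat, Lcp2 and Grap2 did not pass the test, and the genotypes overlapped in each. Lat was at 23923.3, 21536.6, 21857.2 and 25354.7 in Het 31, 53, 56 and 139, and at 20156.8, 24293.3, 21948.2 and 20342 in WT 45, 54, 57 and 65. Het 139 was the highest library and WT 45 the lowest, and WT 54 lay above 3 of the 4 Het libraries. The log2 difference of Lat was 0.10 (SE 0.10, 95% interval -0.13 to 0.32, limma adjusted p = 0.794), and it turned to -0.03 relative to the CD3 and CD8 chain genes.

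Lcp2, whose product SLP-76 assembles the signalling enzymes, was at 9577.2, 9769.6, 11569.1 and 10148.8 in Het 31, 53, 56 and 139. In WT 45, 54, 57 and 65 Lcp2 was at 11015.3, 11670.5, 11123.7 and 9282.5. The highest and the lowest library were both WT, and the log2 difference was -0.07 (SE 0.10, 95% interval -0.29 to 0.16, limma adjusted p = 0.851). Grap2, for the GADS bridge between the 2 scaffolds, was at 15545.5, 18470.4, 21359.6 and 18035.7 in Het 31, 53, 56 and 139, and at 20427.4, 18339.8, 20240.9 and 18405.6 in WT 45, 54, 57 and 65. Het libraries of Grap2 spanned the WT range on both sides, with Het 31 the lowest and Het 56 the highest of the 8. Its log2 difference was -0.08 (SE 0.11, 95% interval -0.33 to 0.16, limma adjusted p = 0.833).

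The effector genes Vav1 and Plcg1 were slightly lower on average in Het, within the error of the test. Vav1, for the exchange factor that activates Rac, was at 8818.9, 8716.6, 8001.6 and 7751.3 in Het 31, 53, 56 and 139, and at 9123.8, 8682.8, 8871.2 and 8793.1 in WT 45, 54, 57 and 65. The 4 WT libraries of Vav1 lay within a factor of 1.05 of each other, and Het 56 and 139 were below all of them, while Het 31 and 53 fell among them. The log2 difference was -0.09 (SE 0.08, 95% interval -0.27 to 0.08, limma adjusted p = 0.754). Plcg1 encodes the phospholipase that makes the messengers behind calcium release and Ras activation. It was at 9930.1, 12514.1, 11993.8 and 9820 in Het 31, 53, 56 and 139, and at 12819.8, 11492.7, 11689.3 and 12245.4 in WT 45, 54, 57 and 65. The Het libraries of Plcg1 fell into a lower pair, Het 31 and 139, and a pair within the WT range, and the log2 difference was -0.13 (SE 0.10, 95% interval -0.36 to 0.10, limma adjusted p = 0.742).

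**Figure D2:**
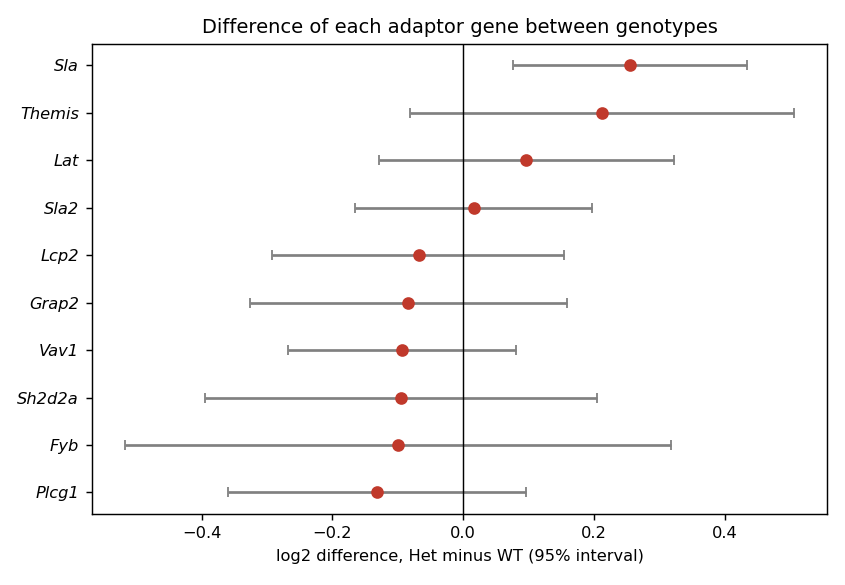
Log2 difference, Het minus WT, of each of the 10 genes (horizontal axis), with the 95% interval from limma as a bar and 0 as a vertical line. The interval of Sla, 0.08 to 0.43, lies above 0 before adjustment over all genes, and the other 9 intervals hold 0, the widest being that of Fyb, from -0.52 to 0.32.

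Among the regulators, Themis was higher on average in Het, with genotypes that overlapped. Themis, needed for the selection of T cells in the thymus and a partner of the phosphatase encoded by Ptpn6, was at 6678.2, 8848.2, 7200.2 and 6434.8 in Het 31, 53, 56 and 139, and at 6208.1, 5500.2, 5734.6 and 7751.3 in WT 45, 54, 57 and 65. Het 53 was the highest library, and WT 65 lay above the other 3 Het libraries. Themis averaged 7290 ± 1087 in Het and 6299 ± 1012 in WT (SD, n = 4 each). On the log2 scale Het minus WT was 0.21, with SE 0.13 and a 95% interval of -0.08 to 0.51 (limma adjusted p = 0.685). It was 0.12 without Het 53, 0.32 without WT 65 and 0.09 relative to the CD3 and CD8 chain genes. On the opposite strand 4930519F09Rik overlaps exons of Themis in GENCODE M21, with 98.6 to 303.4 normalized reads, and whether the counting used strand is not given in the sources used here. Genes on the opposite strand also overlap exons of Sla2, Lcp2, Plcg1 and Fyb there, and were not analysed here.

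Sh2d2a, for the Lck-binding adaptor TSAd that activated T cells make in larger amounts, was at 5503.4, 6619.1, 8421.6 and 6253.1 in Het 31, 53, 56 and 139. In WT 45, 54, 57 and 65 Sh2d2a was at 7169.6, 7646.3, 7666.1 and 5943.6. Het 31 and Het 56 were the lowest and highest of the 8, so the WT range lay inside the Het range, with Het minus WT at -0.10 on the log2 scale (SE 0.14, 95% interval -0.39 to 0.20, adjusted p = 0.845 by limma). Fyb, for ADAP, which ties SLP-76 to integrin activation, varied most. Its value was 12370.1, 14075.2, 22915.3 and 17632.9 in Het 31, 53, 56 and 139, and 20945.4, 16566.4, 18825.7 and 14201.3 in WT 45, 54, 57 and 65. Fyb differed 1.85-fold between the highest and lowest Het library and 1.48-fold between the WT libraries, against a gap between genotypes of -0.10 on the log2 scale (SE 0.19, 95% interval -0.52 to 0.32, limma adjusted p = 0.887). The SD within genotypes was 0.33 for Fyb on the log2 scale, beside a median of 0.14 over the 10 genes and 0.16 over the 5515 genes with a mean of at least 1000.

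Levels of different genes can be set side by side only per length, here as normalized reads per kilobase of exon in GENCODE M21, an annotation on a later build than the authors' mm9. Lat was highest, at a median of 17593 per kilobase over the 8 libraries, followed by Fyb at 6407. Both stood clear of the gene after them in every library. Grap2 at 3279, Vav1 at 2955, Lcp2 at 2527, Plcg1 at 2104, Sla at 1802, Sh2d2a at 1449, Themis at 1165 and Sla2 at 1096 per kilobase followed, and each neighbour in this order overlapped the next over the 8 libraries. Sla2, the lowest, ranged from 976.2 to 1137 per kilobase and Sla from 1632 to 2129, without overlap.

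None of the 45 pairs among the 10 genes passed a test of their correlation over the 8 libraries after adjustment. The 3 with the largest r follow as values. Lcp2 and Sh2d2a had a positive correlation (Pearson r = 0.92, exact permutation p = 0.00288, Spearman rho = 0.88, exact permutation p = 0.00724, n = 8 libraries). Grap2 and Fyb also had a positive one (r = 0.89, exact permutation p = 0.0033, rho = 0.76, exact permutation p = 0.0368, n = 8). Lat and Plcg1 had a negative one (r = -0.87, exact permutation p = 0.00432, rho = -0.95, exact permutation p = 0.00114, n = 8). Adjusted over the 45 pairs of the 10 genes, each of the 3 had an exact permutation p of 0.0647. Without the 2 libraries farthest from the median of the first gene, r was 0.88, 0.73 and -0.91 for the 3 pairs. Relative to the CD3 and CD8 chain genes the r of Lat and Plcg1 turned to 0.58, so the sign for this pair changed with the scaling. Of all pairs among the genes with a mean of at least 1000, 2.12%, 4.05% and 5.55% had an r at least as large in size as Lcp2 with Sh2d2a, Grap2 with Fyb, and Lat with Plcg1. Of the 45 pairs 3 (6.67%) reached the size of Lat with Plcg1, near that 5.55%.

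The promoter sequences of genes in these pairs are shown so that their letters can be compared, with no claim that the genes are controlled together. The letters are from RefSeq on build GRCm38.p6, which is not the mm9 of the authors. Promoters were in the table for 8 of the 10 genes, and Sla and Sh2d2a had no entry. Each runs from 250 bases before to 50 bases after a start of the gene, 5′ to 3′ on the gene's strand. Capitals mark every match on either strand to GGAAGT or CAGGAA, both Ets motifs that can overlap each other, TGTGGT for Runx, CTTTGA for TCF and LEF, or GGGCGG, the GC box.
Fyb (chr15:6579597-6579896, plus strand): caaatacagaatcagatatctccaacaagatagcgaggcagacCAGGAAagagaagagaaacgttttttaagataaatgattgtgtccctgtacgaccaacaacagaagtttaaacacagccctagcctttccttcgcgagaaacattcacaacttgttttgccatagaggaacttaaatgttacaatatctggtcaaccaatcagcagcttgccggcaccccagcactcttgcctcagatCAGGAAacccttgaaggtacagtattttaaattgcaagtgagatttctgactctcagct
Grap2 (chr15:80623233-80623532, plus strand): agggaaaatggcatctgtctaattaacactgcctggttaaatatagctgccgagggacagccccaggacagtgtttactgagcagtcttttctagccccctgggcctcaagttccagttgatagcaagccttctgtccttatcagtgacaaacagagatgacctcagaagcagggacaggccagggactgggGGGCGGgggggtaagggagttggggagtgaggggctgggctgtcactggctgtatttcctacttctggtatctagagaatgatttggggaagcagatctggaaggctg
Lcp2 (chr11:34046678-34046977, plus strand): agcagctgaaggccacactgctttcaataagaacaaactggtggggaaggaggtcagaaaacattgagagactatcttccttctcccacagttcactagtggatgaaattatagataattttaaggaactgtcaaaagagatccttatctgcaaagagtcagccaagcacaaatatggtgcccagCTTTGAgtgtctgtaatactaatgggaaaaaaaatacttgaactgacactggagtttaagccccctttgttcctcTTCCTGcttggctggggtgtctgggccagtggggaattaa
Lat (chr7:126369519-126369818, minus strand): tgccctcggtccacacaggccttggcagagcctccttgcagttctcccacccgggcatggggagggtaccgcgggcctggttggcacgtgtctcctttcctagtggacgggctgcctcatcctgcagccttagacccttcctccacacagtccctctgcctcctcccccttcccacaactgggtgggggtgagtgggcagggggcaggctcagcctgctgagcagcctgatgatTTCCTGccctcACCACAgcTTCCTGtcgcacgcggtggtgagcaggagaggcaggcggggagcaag
Plcg1 (chr2:160731060-160731359, plus strand): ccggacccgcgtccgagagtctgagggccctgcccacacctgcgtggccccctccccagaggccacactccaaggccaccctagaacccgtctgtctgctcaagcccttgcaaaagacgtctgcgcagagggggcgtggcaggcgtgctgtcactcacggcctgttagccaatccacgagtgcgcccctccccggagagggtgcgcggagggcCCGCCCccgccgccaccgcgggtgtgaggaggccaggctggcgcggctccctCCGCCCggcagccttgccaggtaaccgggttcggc

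Each motif found in these promoters is common among promoters at large. CAGGAA, found 2 times in Fyb, 2 times in Lat and 1 time in Lcp2, stands in 30.6% of the 32851 promoters of this length. Lat also held TGTGGT, found in 16.8% of promoters, and Lcp2 held CTTTGA, found in 16.0%. GGGCGG was found in Grap2 and Plcg1, and in 35.7% of promoters. GGAAGT, which 23.8% of promoters hold, was in none of the 5. The motifs were chosen after the values had been seen, and a match is a run of letters, not a bound site.

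The 10 genes were also set against 7 marker lists (B, NK, myeloid and CD4 T cells, nerve and connective tissue, epidermis and heat shock), by the mean log2 level of each list. These relations were chosen after the values had been seen, so their p-values are no independent evidence. Of the 70 relations 7 had an adjusted exact permutation p under 0.05, and none did within genotypes, where libraries were permuted inside each genotype (576 arrangements, lowest adjusted p = 0.122). With 576 arrangements a single relation, however strong, could not pass 0.05 after adjustment over 70. The lack of a pass within genotypes therefore cannot show that a relation is absent there.

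Fyb and Grap2, both at their lowest in Het 31, ran against the lists of other blood cells. Lcp2 and Sh2d2a, the latter also lowest in Het 31, did so too, short of the adjusted threshold. Lcp2 had r = -0.86 with the CD4 T cell list and -0.72 with the NK cell list, and Sh2d2a had -0.74 and -0.78. Fyb had r = -0.86 with the CD4 T cell list, also short of that threshold. Fyb had r = -0.93 with the B cell list (exact permutation p = 0.00102, adjusted 0.0266, rho = -0.95, exact permutation p = 0.00114, n = 8), and -0.93 without Het 31 and WT 45, the 2 libraries farthest from the list's median. Within genotypes that r was also -0.93 (exact permutation p = 0.00868, adjusted 0.122, n = 8). With the NK cell list Fyb had r = -0.91 (exact permutation p = 0.00181, adjusted 0.0274, rho = -0.95, exact permutation p = 0.00114, n = 8), -0.89 without the same 2 libraries and -0.97 within genotypes. The B and NK cell lists themselves followed each other closely (r = 0.95 over the 8 libraries), so the data do not single out either one. The myeloid list also went with the NK cell list (r = 0.88) and the B cell list (r = 0.84).

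Grap2 had r = -0.90 with the B cell list (exact permutation p = 0.00459, adjusted 0.0459, rho = -0.76, exact permutation p = 0.0368, n = 8), and -0.77 without Het 31 and WT 45. With the NK cell list it had r = -0.92 (exact permutation p = 0.00196, adjusted 0.0274, rho = -0.76, exact permutation p = 0.0368, n = 8), and -0.87 without those 2. With the myeloid list it had r = -0.88 (exact permutation p = 0.00362, adjusted 0.0422, rho = -0.88, exact permutation p = 0.00724, n = 8), and -0.71 without Het 31 and 56. Within genotypes the 3 values of Grap2 were -0.89, -0.93 and -0.87. Of 12038 genes outside the B cell list, 0.366% were at least as negative with it as Fyb and 0.972% at least as negative as Grap2. No such share was taken for the NK cell, myeloid or heat shock lists, so how common such values are there is not known.

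Lat and Plcg1 went with the heat shock list, in opposite directions. Lat had r = -0.94 with it (exact permutation p = 0.00114, adjusted 0.0266, rho = -0.95, exact permutation p = 0.00114, n = 8), -0.89 without Het 139 and WT 45, and -0.92 within genotypes. Plcg1 had r = 0.89 (exact permutation p = 0.000893, adjusted 0.0266, rho = 0.93, exact permutation p = 0.00223, n = 8), 0.82 without the same 2 libraries, and 0.87 within genotypes. The heat shock genes summed to 17370.5 to 48836.8 in Het and 34492.3 to 59716.7 in WT libraries. Sla also ran against the heat shock list, short of the adjusted threshold (r = -0.73, exact permutation p = 0.046, adjusted 0.189, n = 8). That r was -0.53 without Het 139 and WT 45, and -0.88 within genotypes (exact permutation p = 0.0104, adjusted 0.122). With the myeloid list Sla had r = 0.76 (exact permutation p = 0.0341, adjusted 0.183, n = 8), and 0.845 within genotypes (exact permutation p = 0.00521, adjusted 0.122). Lat had r = 0.65 and Plcg1 -0.705 with the myeloid list, both short of the adjusted threshold. The heat shock and myeloid lists themselves ran against each other (r = -0.83 over the 8 libraries), so relations with the 2 lists are not separate.

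The B cell list took 0.0706% of the total in Het 31, 0.0338% in Het 53, 0.0142% in Het 56 and 0.0208% in Het 139, and between 0.0115% and 0.0300% in WT libraries. Het 31 was also highest in the sums of NK cell markers (8391.2, the other 7 libraries 2232.1 to 4282.7) and of myeloid markers (4915.7, the other 7 libraries 1170 to 3602.7). The 10 genes for receptor chains, coreceptors, Cd2, Cd5, Cd6 and Cd28 summed to 205082.8 in Het 31. That sum lay inside the Het range of 172735.9 to 217348.8 and above the WT range of 171302.2 to 195734.9. A list of 10 naive CD8 T cell genes summed to 294211.5 in Het 31. This was inside both the Het range of 284458.4 to 321049.9 and the WT range of 277961.9 to 310998. The cause of the low Fyb and Grap2 in Het 31 was not tested. With the B cell list as a covariate the log2 difference of Fyb between genotypes was 0.08, that of Grap2 -0.01 and that of Sla 0.23.

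**Figure D3:**
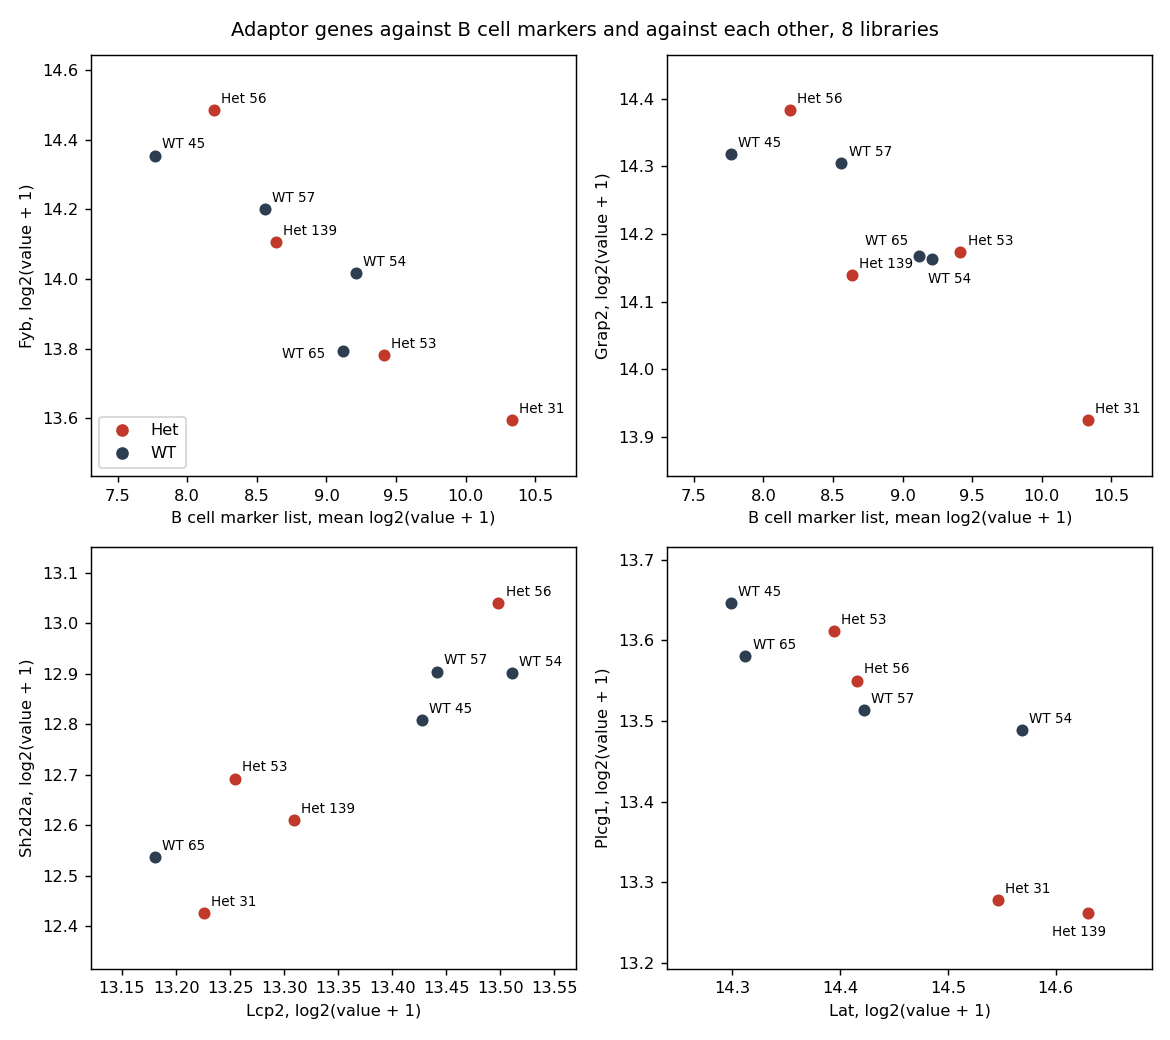
Log2(value + 1) of Fyb and Grap2 against the mean log2 level of the B cell marker list (upper panels), of Sh2d2a against Lcp2 (lower left) and of Plcg1 against Lat (lower right), 1 point per library, Het in red and WT in dark. Fyb and Grap2 are lowest in Het 31, where the B cell list is highest, and in the panel of Plcg1 against Lat, Het 31 and Het 139 lie apart at the low end of Plcg1.

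No gene of the wider pathway passed the test. Of 90 other genes of T cell receptor signalling, in 4 lists, 48 were higher and 42 lower in Het, 0 passed by limma, and 3 had an unadjusted p under 0.05 (3.33%, beside 8.19% of all tested genes). Genotypes did not overlap in 1 of the 90, beside 5.0% of all tested genes. Receptor chains and coreceptors, listed with the surface receptor genes Cd2, Cd5, Cd6 and Cd28, were higher in Het in 8 of 10 genes (median 0.05). Kinases, phosphatases and ubiquitin ligases were higher in 9 of 20 (median -0.04) and other adaptors in 16 of 31 (median 0.01). The calcium, NFAT, NF-kappaB and Ras branches were higher in 15 of 29 (median 0.00).

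The gene without overlap was Sit1, a transmembrane adaptor that dampens receptor signalling. Sit1 was at 2569.6, 1941.2, 2145.1 and 2475.1 in Het 31, 53, 56 and 139, and at 1525, 1891.1, 1721.6 and 1731.4 in WT 45, 54, 57 and 65. Each Het library was above each WT library, with Het minus WT at 0.41 on the log2 scale, SE 0.11 and a 95% interval of 0.16 to 0.65. It did not pass (limma adjusted p = 0.246). The exact permutation p was 0.0286, the value that every gene without overlap gives here, so it adds nothing to the lack of overlap. Nck2, an adaptor to the actin cytoskeleton, was at 685 ± 79.4 in Het and 880 ± 114 in WT (SD, n = 4 each, log2 difference -0.36, limma adjusted p = 0.507). Gab3, a docking protein, was at 593 ± 100.3 in Het and 753 ± 103 in WT (log2 difference -0.35, adjusted p = 0.590 by limma). Both overlapped between the genotypes.

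In the other lists the genes with the smallest p overlapped as well. Ptpn6, for the phosphatase SHP-1, was at 15261 ± 1708 in Het and 17578 ± 1787 in WT (SD, n = 4 each, log2 difference -0.20, limma adjusted p = 0.653). Cd3d, a receptor chain, was at 16120 ± 4075 in Het and 13229 ± 1360 in WT (log2 difference 0.26, adjusted p = 0.690 by limma), with Het 31 alone at 21438.2. Cdc42 and Rac1, the GTPases that act after Vav1, had log2 differences of 0.27 and 0.21 (limma adjusted p = 0.653 and 0.651). Cd3g and Cd8b1, a receptor chain and a coreceptor chain, had 0.20 and 0.15 (limma adjusted p = 0.694 and 0.744). The phosphatase gene Ubash3b had -0.23 and the kinase gene Txk 0.14 (limma adjusted p = 0.690 and 0.698).

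**Figure D4:**
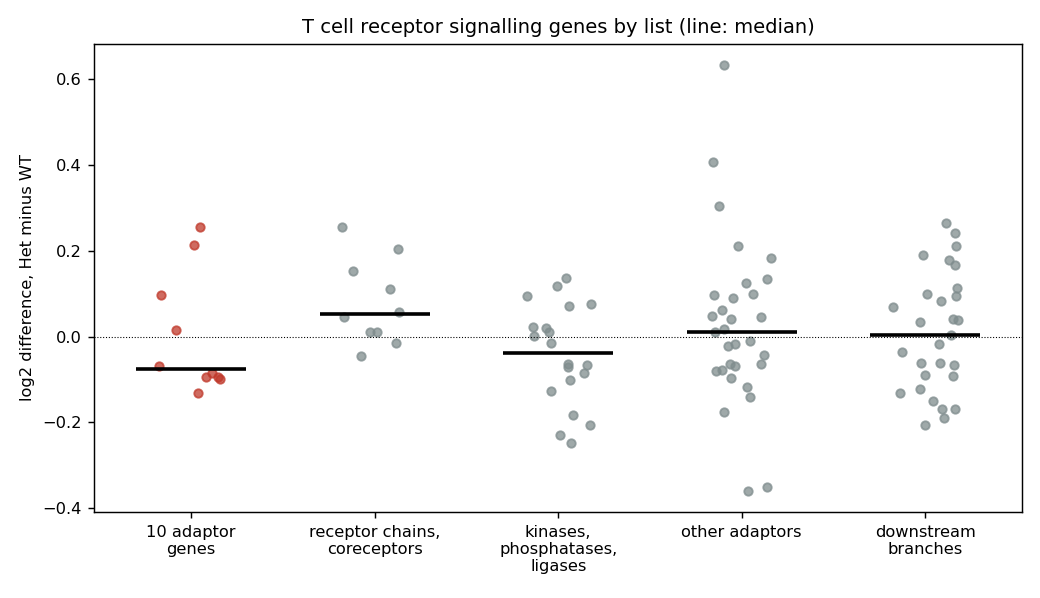
Log2 difference, Het minus WT (vertical axis), of the 10 adaptor genes (red) and of the genes of 4 other lists of T cell receptor signalling (grey), 1 point per gene, with the median of each list as a line. The list marked as receptor chains and coreceptors also holds Cd2, Cd5, Cd6 and Cd28. The medians lie between -0.08 and 0.05, and no point passed the adjusted threshold.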

How the data were processed

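Naive CD8 T cells were isolated from spleen, and TruSeq stranded mRNA libraries were made from their total RNA, per the labels' protocols. The table that the authors deposited holds 22609 genes in 8 libraries, as normalized read counts (a linear signal). The submitters' processing notes name CASAVA, TopHat2, HTSeq, DESeq and build mm9, with no version. The normalization step and the use of strand in counting remain not given in those sources. At each rank of a library's values from high to low, the 8 libraries lay within 2% of their mean (100% of 9513 ranks averaging 100 or more), as quantile normalization gives. Totals (27488636.8 to 27489670) therefore carry no depth, and no count model was used.

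Genes with a mean of at least 10 were tested (12048) on log2(value + 1), 2-sided, by limma 3.58.1 (R 4.3.3) with its mean-variance trend. The script was tested on simulated data. Single genes were also compared by exact 2-sided permutation of the genotypes (70 assignments), and correlations by exact permutation of the libraries. Relations within genotypes (genotype means subtracted) were added after seeing the data. Exon lengths and overlaps came from GENCODE M21 and promoters from RefSeq, both on GRCm38. Of the list genes, a few were matched through RefSeq synonyms. Tables and figures were made with Python 3.11.15, pandas 2.3.3 and matplotlib 3.10.9.

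The members and lists were chosen with earlier results of these data known. Besides the 10 genes, the text names the 3 genes of each pathway list with the smallest p, any past the threshold, and the 3 genes most like Sla, except 1 gene that is not reported here. The choices varied were the pseudocount (0.5, 5), the filter on low values (none beyond a value above 0, a mean of 50), 3 other scalings, array weights, no trend, robust moderation, a B cell covariate and leaving out libraries.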

Additional observations from a re-analysis of the deposited data

Results flagged for a closer look

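Of 60 groups of 4 libraries checked, among them the Het and the WT libraries of each of the 10 adaptor genes, 1 (1.67%) had a library far from the other 3, where chance gives about 1 in 20. It was Cd3g, a receptor chain, in WT 54, at 18659.4, against 15715.2 to 16087.9 in the other WT libraries.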

How the results depend on the processing

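Sla was higher in Het under all 21 alternatives, by 0.13 to 0.30 on the log2 scale, and passed the adjusted threshold under none of them (limma adjusted p between 0.168 and 0.999). Most of these could not have changed its sign, as each Het library lay above each WT library. Leaving out or weighting libraries, the pseudocount, the filter and the variance settings all keep that order. The shared sign is therefore little evidence of a stable difference. No member and no pathway gene passed under any alternative run. The median log2 difference of the 10 genes was -0.102 to -0.007 with 1 library left out. Small differences changed sign. For Sla2 the value was -0.004 with median ratio scaling, -0.11 relative to the CD3 and CD8 chain genes, -0.017 with array weights, -0.00035 without Het 31 and 139, and -0.029 to 0.044 with 1 library left out. Lat had -0.029 relative to the chain genes, and Lcp2 0.011 without WT 45 and 54. Without Het 31 and 139 Grap2 had 0.039, Plcg1 0.024, Sh2d2a 0.079, Fyb 0.041 and Cd3g -0.023. Fyb had 0.078 with the B cell covariate and -0.264 to 0.033 with 1 library left out, the higher end without Het 31. Among values that kept their sign, leaving out Het 31 gave Grap2 -0.007, Sh2d2a -0.007 and Cd3d 0.107, leaving out Het 56 gave Ubash3b -0.109 and Grap2 -0.16, and leaving out Het 139 gave Cd3g 0.112. With 1 library left out Lcp2 ranged between -0.138 and -0.028, Sh2d2a -0.211 and -0.007, Plcg1 -0.194 and -0.077, Vav1 -0.122 and -0.06, Lat 0.052 and 0.152, and Themis 0.116 and 0.317. The r of Lat and Plcg1 was 0.585 relative to the chain genes. No gene named here passed the threshold before or after, and the cause was not tested.

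The number of all tested genes past the threshold was 62, 123 without the filter, 14 with a mean of at least 50, 40 with the B cell covariate, 3 without Het 31 and 139, 3 without WT 45 and 54, and 11 to 91 with 1 library left out. No paired analysis was run because the labels give no pairing of Het with WT libraries. All totals are nearly equal, so a change in total RNA cannot be seen.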

Other observations

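Relatives of the 10 genes from the same families were measured too. Blnk, the B cell counterpart of Lcp2, was at 597.8, 326.8, 93.1 and 174.5 in Het 31, 53, 56 and 139, and at 101.2, 300.9, 171 and 187.8 in WT 45, 54, 57 and 65. Lat2, a Lat relative of B and myeloid cells, was at 400.2, 195.8, 73.4 and 111.7 in Het 31, 53, 56 and 139, and at 56.9, 156.6, 100.4 and 202.2 in WT 45, 54, 57 and 65. Both were highest in Het 31. Plcg2, the B cell and myeloid relative of Plcg1, was at 484 to 1097.2 in Het and 484.4 to 629.4 in WT libraries, again with Het 31 at the top. Grap, a relative of Grap2, was at 5824.5 to 6912.1 in Het and 5160.5 to 6494.2 in WT libraries. Vav2 was at 125.2 to 348.9 in Het and 172.6 to 296.3 in WT, and Vav3 at 449.1 to 515.2 in Het and 337.2 to 604 in WT. Skap2, for a partner of ADAP, was at 315.2 to 455.6 in Het and 258.6 to 329.1 in WT libraries (log2 difference 0.37, limma adjusted p = 0.588). Of the 8 relatives tested 7 were higher in Het and none passed by limma. Only 1 of the 8, Skap2, had an unadjusted p under 0.05, beside 8.19% of all tested genes. Like Blnk, Lat2 and Plcg2, the genes Grap, Skap2 and Vav2 were highest in Het 31. Vav3 was highest in WT 45 and Sh2d4a in Het 56. Clnk and Sh2d4a were at 73.4 or less in every library.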
